A study of Mus musculus with 12 samples.

Results

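The genes described here make cholesterol and fatty acids and are known targets or regulators of the sterol regulatory element-binding proteins (SREBPs). They were chosen by name, as a list of 34 genes, with earlier results of these data known. Counts of genes called are therefore not those of a list made blind. Each gene was read from the probe set that carries its symbol alone in the platform table and, where there was more than 1, from the brightest. Of the 34 genes 33 were measured, out of 19938 genes named on the array, and Acat2, the cytosolic thiolase, had no probe set under its symbol. The 33 were divided by role into 17 enzymes of sterol synthesis, 6 regulators and carriers of sterols, and 10 enzymes of fatty acid synthesis.

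Jejunum was taken from male mice 8 weeks of age on day 7 after surgery, and total RNA was hybridised to 12 Affymetrix arrays. There were 4 groups of 3 arrays, namely A/J mice with common bile duct ligation (CBDL), A/J mice with a sham operation, C57BL/6J mice (C57BL6J in the labels, B6 here) with CBDL and B6 mice with a sham operation. CBDL is a model of cholestasis, in which bile no longer reaches the intestine, and the sham operation left the duct neither dissected nor tied. The strains are inbred, and the labels name no engineered allele. The study asked which intestinal genes respond to cholestasis and whether the response depends on the strain. Values are log2 RMA signals as the authors deposited them, so a difference of 1 is a fold change of 2, and signals of different probe sets were not compared with each other. Intact jejunum was measured in bulk, so more RNA per cell and more cells of a kind cannot be told apart.

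SREBPs are membrane proteins of the endoplasmic reticulum. When sterols in the membrane fall, SCAP carries them to the Golgi apparatus, where they are cleaved and release a transcription factor, and when sterols are plentiful the INSIG proteins hold SCAP back. SREBP2, from Srebf2, acts mainly on the genes of cholesterol synthesis, and SREBP1, from Srebf1, mainly on those of fatty acid synthesis. The intestine is a major site of cholesterol synthesis, and bile acids are needed there for the absorption of cholesterol and fat.

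SREBPs bind sterol regulatory elements, usually beside sites for the factors NF-Y and Sp1. Promoters were available for 26 of the 33 measured genes, from RefSeq on build GRCm38.p6. The 250 bases before each start were searched on both strands for TCACNCCAC (sterol regulatory element), CCAAT (NF-Y) and GGGCGG (Sp1), and a gene with several starts counted when any of them matched. CCAAT was found for 14 of 14 sterol synthesis genes, 4 of 5 regulators and 3 of 7 fatty acid genes. It was found for 38.8% of the 15614 genes named on the arrays that have a promoter in the table, and for 37.5% of all 27025 genes of the table. GGGCGG was found for 13 of 14 sterol synthesis genes, 5 of 5 regulators and 4 of 7 fatty acid genes, against 49.3% of the genes on the arrays and 35.4% of the table. TCACNCCAC, a strict form of the element, was found only for Hmgcs1 among the 26, and for 1.2% of the genes on the arrays and 1.22% of the table. A match is a string of letters and not a measured binding site.

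The promoters of Hmgcs1, Cyp51, Insig1, Srebf2 and Fasn are printed because these genes stand for the sterol enzymes, the regulators and the fatty acid enzymes that rose after CBDL. Each runs 5′ to 3′ on the strand of the gene and ends at the base before the start, with CCAAT or its reverse ATTGG in capitals and, in Hmgcs1, also TCACCCCAC. The boxes of Fasn nearest to the start share 2 bases, so they stand as 1 run of capitals.
Hmgcs1 (chr13:119690101-119690350, plus strand): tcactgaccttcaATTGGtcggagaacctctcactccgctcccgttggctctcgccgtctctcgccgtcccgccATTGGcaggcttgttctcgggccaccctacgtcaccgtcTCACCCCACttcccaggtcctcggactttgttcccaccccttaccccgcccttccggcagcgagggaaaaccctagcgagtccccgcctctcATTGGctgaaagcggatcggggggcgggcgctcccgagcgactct
Cyp51 (chr5:4104698-4104947, minus strand): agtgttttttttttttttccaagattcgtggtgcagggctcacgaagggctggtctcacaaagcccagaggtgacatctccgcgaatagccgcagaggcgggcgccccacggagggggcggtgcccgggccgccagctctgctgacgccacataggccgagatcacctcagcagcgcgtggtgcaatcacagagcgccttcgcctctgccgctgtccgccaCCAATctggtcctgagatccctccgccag
Insig1 (chr5:28071162-28071411, plus strand): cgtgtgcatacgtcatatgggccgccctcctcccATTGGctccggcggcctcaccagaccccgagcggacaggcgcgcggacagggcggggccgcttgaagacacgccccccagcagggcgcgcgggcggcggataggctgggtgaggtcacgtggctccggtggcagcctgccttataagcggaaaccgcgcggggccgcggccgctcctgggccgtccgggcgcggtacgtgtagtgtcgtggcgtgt
Srebf2 (chr15:82147019-82147268, plus strand): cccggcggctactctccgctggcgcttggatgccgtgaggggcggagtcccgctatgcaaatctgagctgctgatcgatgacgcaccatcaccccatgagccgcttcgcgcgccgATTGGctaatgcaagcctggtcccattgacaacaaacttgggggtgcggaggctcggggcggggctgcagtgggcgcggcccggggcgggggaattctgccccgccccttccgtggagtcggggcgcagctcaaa
Fasn (chr11:120824548-120824797, minus strand): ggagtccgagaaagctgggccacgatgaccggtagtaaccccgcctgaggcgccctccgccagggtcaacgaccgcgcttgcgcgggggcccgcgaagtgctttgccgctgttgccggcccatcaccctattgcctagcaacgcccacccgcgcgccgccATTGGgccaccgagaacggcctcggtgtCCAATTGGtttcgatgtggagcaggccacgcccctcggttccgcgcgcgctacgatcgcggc

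Groups were compared with limma over all 35556 probe sets, and a gene is said to be called, to rise or to fall where its Benjamini-Hochberg adjusted p over all probe sets was under 0.05. Nothing in the labels says that the 3 arrays of a group came from separate mice, so p-values measure only the spread between these samples, which may be technical, and precision is limited by having 3 arrays a group. Enterocyte markers were high throughout, with a mean of 12.16 to 12.41 in all arrays. Of 10 enterocyte markers 1 fell after CBDL in the average, Lct, lactase, by 0.47 (adjusted p = 0.0303), and 9 were not called. Of the 35556 probe sets 219 fell in the average. Hepatocyte markers differed between the groups, and since liver makes cholesterol too they are given here before the results. The mean of 18 measured hepatocyte markers was 8.32, 8.85 and 8.59 in A/J CBDL against 4.78, 4.75 and 5.10 in A/J sham, and 8.39, 8.66 and 8.52 in B6 CBDL against 5.97, 6.98 and 8.35 in B6 sham. B6 sham replicate 3 thus had hepatocyte markers close to the level of the CBDL arrays. Alb, serum albumin, had 12.15, 12.63 and 12.25 in A/J CBDL against 5.47, 5.31 and 8.44 in A/J sham. In B6 mice it had 11.85, 12.46 and 12.08 in CBDL against 10.69, 11.61 and 12.28 in sham. In A/J mice 14 of the 18 markers rose after CBDL (0.630% of all probe sets rose), with a median difference of 3.88. In B6 mice 0 of 18 were called by limma, with a median of 1.17 and 12 at an unadjusted p under 0.05 (7.64% of all probe sets). Averaged over the strains 17 of 18 rose (1.12% of all probe sets rose), with a median of 2.59. Between the sham groups 7 of 18 were called lower in A/J than in B6 mice, as were 459 of the 35556 probe sets. The 6 smooth muscle markers had a median difference of 0.29 between CBDL and sham in A/J mice, and of -1.42 in B6 mice, where all 6 were lower in every CBDL array (7.62% of all probe sets were), with 0 called by limma in either strain and 6 at an unadjusted p under 0.05 in B6 mice (7.64% of all probe sets). The part of smooth muscle in the results was not tested.

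Most genes of the route that leads to lanosterol and on toward cholesterol were higher in CBDL jejunum. Averaged over both strains, 13 of 17 sterol synthesis genes rose, by 1.49-fold for Mvd to 2.53-fold for Cyp51, together with Insig1 (2.13-fold), Srebf2 (1.47-fold) and Fasn (1.48-fold). In all 16 of 33 genes rose and 0 fell, where 1.12% of all probe sets rose. The median log2 difference was 0.80 for sterol synthesis, 0.15 for the regulators and 0.22 for fatty acid synthesis, beside -0.01 for all probe sets. Within A/J mice 14 of 33 rose and 0 fell, where 0.630% of all probe sets rose. Within B6 mice 2 of 33 rose and 0 fell, where 0.0366% of all probe sets rose. Leaving out 1 array changed these counts. The A/J count was 5 without A/J sham replicate 2 and 6 to 8 without A/J sham replicate 1 or any of the A/J CBDL arrays, the B6 count was 0 or 1 without any of 10 arrays, and in the average 16 rose in every leave-out, while Scd2 fell without A/J sham replicate 1.

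Fewer genes were called in B6 mice, while the differences themselves covered a similar range. The gap in calls depended on the setting. With only the probe sets of exactly 1 gene symbol 14 of 33 rose in each strain, and with array weights 14 rose in A/J and 11 in B6 mice. Calls over all probe sets, in either direction, moved as well. They numbered 565 in A/J and 163 in B6 mice with 1 symbol, and 1299 and 167 with array weights. The main fit had 291 and 19. The median of the 17 sterol synthesis genes was 0.84 in A/J mice and 0.78 in B6 mice, and that of all 33 was 0.50 and 0.49, beside -0.01 and 0 for all probe sets. The 14 genes that rose in A/J mice had differences of 0.55 to 1.47 there. In B6 mice the same 14 had differences of 0.57 to 1.21, all positive, with adjusted p of 0.0499 to 0.250. All 14 had every CBDL array above every sham array in both strains. In A/J mice they were picked for being higher, so their A/J values carry that choice. Over the 33 genes the CBDL arrays lay wholly above the sham arrays for 20 in A/J mice and 22 in B6 mice, 18 of them in both, where 8.04% and 7.89% of all probe sets did so. The share of all probe sets that did so in both strains at once was not counted. The CBDL arrays lay wholly below for 0 genes in A/J mice and 1 in B6 mice, Scd2, where 9.07% and 7.62% of all probe sets did so. For the strain by CBDL interaction, the test of the difference between the strains, 0 of 33 genes were called by limma, where 0.0366% of all probe sets were called. At an unadjusted p under 0.05 there was 1 gene, Tm7sf2, where 6.88% of all probe sets passed it. The interaction of the 17 sterol genes ran from -0.39 to 0.56, and their 95% intervals reached from -0.76 to 1.18. These arrays thus neither set the responses of the strains apart nor show that they are alike.

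**Figure D1:**
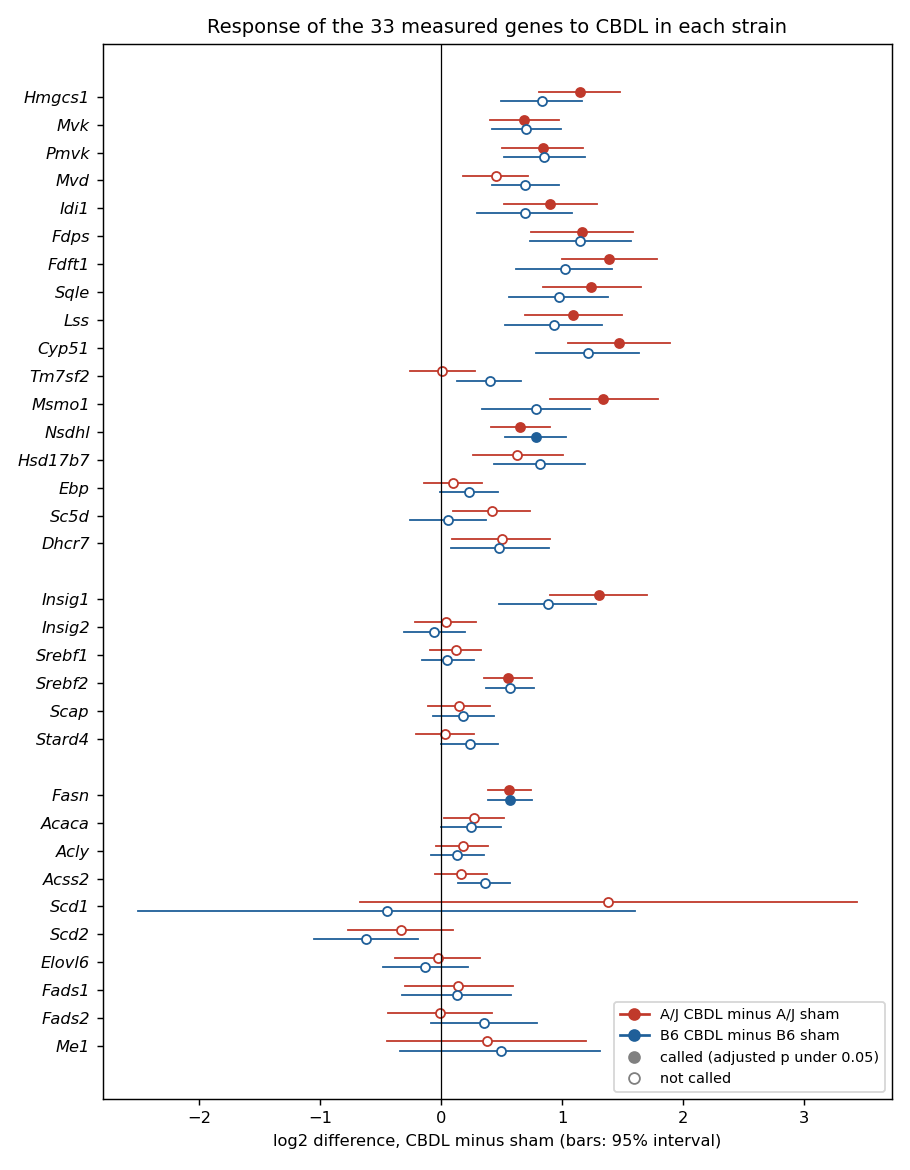
Log2 difference (CBDL minus sham) of the 33 measured genes in A/J mice (red) and B6 mice (blue), with 95% intervals from limma; filled points are called. From top to bottom the blocks are sterol synthesis, regulators and fatty acid synthesis, and the sterol genes lie to the right of 0 in both strains, with medians of 0.84 and 0.78.

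The sterol route starts with Hmgcs1, which makes HMG-CoA from acetoacetyl-CoA and acetyl-CoA. Its signal was 10.47, 10.35 and 10.35 in the A/J CBDL arrays against 9.20, 9.25 and 9.28 in A/J sham, and 10.03, 10.62 and 10.59 in the B6 CBDL arrays against 9.70, 9.37 and 9.69 in B6 sham. The CBDL arrays lay above the sham arrays in both strains. The difference was 1.15 (standard error 0.15, adjusted p = 0.00717) in A/J and 0.83 (standard error 0.15, adjusted p = 0.101) in B6 mice. Mvk, mevalonate kinase, had 8.09, 7.84 and 7.92 in the A/J CBDL arrays against 7.25, 7.45 and 7.10 in A/J sham, and 7.60, 7.67 and 8.02 in the B6 CBDL arrays against 7.10, 7.05 and 7.01 in B6 sham. Pmvk, the kinase of the next step, had 8.10, 7.84 and 7.74 in the A/J CBDL arrays against 6.97, 7.23 and 6.97 in A/J sham, and 7.42, 7.77 and 7.78 in the B6 CBDL arrays against 6.80, 6.56 and 7.04 in B6 sham. Both were higher in each CBDL array than in any sham array of the strain, and their differences in A/J and B6 mice were nearly equal, 0.68 and 0.70 for Mvk and 0.84 and 0.85 for Pmvk. Over both strains these 3 genes rose by 1.98-fold, 1.62-fold and 1.80-fold (adjusted p = 0.00193, 0.00495 and 0.00415).

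Mvd, which decarboxylates the product to isopentenyl pyrophosphate, had 7.55, 7.59 and 7.43 in the A/J CBDL arrays against 7.28, 7.12 and 6.81 in A/J sham, and 7.59, 7.75 and 7.80 in the B6 CBDL arrays against 7.14, 6.99 and 6.93 in B6 sham. The groups did not overlap, and the gene was called only in the average of the strains, 0.57 (standard error 0.09, adjusted p = 0.0101). Its differences within strains were 0.45 (standard error 0.12, adjusted p = 0.132) in A/J and 0.69 (standard error 0.12, adjusted p = 0.0857) in B6 mice. Idi1, the isomerase of isopentenyl pyrophosphate, had 9.97, 9.67 and 9.68 in the A/J CBDL arrays against 8.72, 8.87 and 9.01 in A/J sham, and 9.56, 9.95 and 9.95 in the B6 CBDL arrays against 9.29, 8.73 and 9.36 in B6 sham. Here the lowest B6 CBDL array and the highest B6 sham array lay close together. Idi1 rose in A/J mice by 0.90 (adjusted p = 0.0451) and had 0.69 in B6 mice (adjusted p = 0.250). Its dimmer probe set gave 0.87 in A/J mice (adjusted p = 0.0703), so the call within A/J rests on 1 of 2 probe sets. Fdps, farnesyl pyrophosphate synthase, had 9.26, 9.48 and 9.31 in the A/J CBDL arrays against 8.26, 8.30 and 8.02 in A/J sham, and 9.11, 9.45 and 9.50 in the B6 CBDL arrays against 8.59, 7.76 and 8.27 in B6 sham. It differed by 1.16 in A/J and 1.15 in B6 mice, and rose 2.22-fold over both (adjusted p = 0.00241).

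Squalene and the ring are made by 3 enzymes, and all 3 rose. Fdft1, squalene synthase, had 9.67, 9.73 and 9.61 in the A/J CBDL arrays against 8.32, 8.17 and 8.36 in A/J sham, and 9.42, 9.81 and 9.86 in the B6 CBDL arrays against 8.97, 8.24 and 8.83 in B6 sham. The A/J arrays of each group lay close together, and the B6 sham arrays were spread more widely. Fdft1 differed by 1.39 (standard error 0.18, adjusted p = 0.00682) in A/J mice and by 1.02 (standard error 0.18, adjusted p = 0.0852) in B6 mice, and its dimmer probe set by 1.28 (adjusted p = 0.00434) and 1.05 (adjusted p = 0.0499). Sqle, squalene epoxidase, had 8.76, 9.01 and 8.67 in the A/J CBDL arrays against 7.56, 7.65 and 7.51 in A/J sham, and 8.77, 9.12 and 9.25 in the B6 CBDL arrays against 8.49, 7.74 and 7.99 in B6 sham. B6 sham replicate 1 stood above the other B6 sham arrays. Lss, lanosterol synthase, had 8.04, 7.54 and 7.43 in the A/J CBDL arrays against 6.55, 6.65 and 6.53 in A/J sham, and 7.43, 7.69 and 8.01 in the B6 CBDL arrays against 6.94, 6.57 and 6.84 in B6 sham. The groups of each strain did not overlap for either gene. Sqle and Lss rose 2.37-fold and 2.13-fold in A/J mice (adjusted p = 0.0122 and 0.0208) and had 1.96-fold and 1.90-fold in B6 mice (adjusted p = 0.110 and 0.112).

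Cyp51, the demethylase that acts on lanosterol, had the highest log2 difference of the 33 genes in each strain. Its signal was 8.81, 8.69 and 8.62 in the A/J CBDL arrays against 7.35, 7.29 and 7.07 in A/J sham, and 8.13, 8.69 and 8.80 in the B6 CBDL arrays against 7.51, 6.95 and 7.54 in B6 sham. The lowest A/J CBDL array was above the highest A/J sham array by more than 1 log2 unit. The difference was 1.47 (standard error 0.19, adjusted p = 0.00717) in A/J mice and 1.21 (standard error 0.19, adjusted p = 0.0660) in B6 mice, and the interaction 0.26 (standard error 0.27, adjusted p = 0.895). Msmo1, the oxidase that removes methyl groups from the ring, had 11.89, 11.56 and 11.47 in the A/J CBDL arrays against 10.17, 10.22 and 10.51 in A/J sham, and 11.00, 11.70 and 11.82 in the B6 CBDL arrays against 10.82, 10.58 and 10.77 in B6 sham. B6 CBDL replicate 1 was nearer to the sham arrays than the other CBDL arrays were. Msmo1 had the largest positive interaction of the sterol genes, 0.56 (standard error 0.28), with an interval of -0.07 to 1.18 and an adjusted p of 0.761. It rose 2.54-fold in A/J mice (adjusted p = 0.0122) and had 1.72-fold in B6 mice (adjusted p = 0.246).

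Nsdhl, a dehydrogenase of the same demethylation, was the sterol gene called in both strains. It had 9.09, 9.18 and 9.01 in the A/J CBDL arrays against 8.33, 8.53 and 8.45 in A/J sham, and 8.78, 8.98 and 8.91 in the B6 CBDL arrays against 8.22, 7.88 and 8.24 in B6 sham. The arrays of a group were close together and the groups apart. The difference was 0.65 (standard error 0.11, adjusted p = 0.0254) in A/J and 0.78 (standard error 0.11, adjusted p = 0.0499) in B6 mice. Hsd17b7, a keto reductase of that step, had 8.79, 8.47 and 8.32 in the A/J CBDL arrays against 7.73, 8.05 and 7.90 in A/J sham, and 8.34, 8.65 and 8.87 in the B6 CBDL arrays against 7.99, 7.58 and 7.84 in B6 sham. It was called over both strains, 0.73 (standard error 0.12, adjusted p = 0.0146), and in neither alone.

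The 4 sterol genes not called in the average act late in the route, apart from Tm7sf2 beside Cyp51. Tm7sf2, a sterol reductase, had 8.21, 8.04 and 8.13 in the A/J CBDL arrays against 8.04, 8.16 and 8.13 in A/J sham, and 7.83, 8.24 and 8.26 in the B6 CBDL arrays against 7.83, 7.60 and 7.71 in B6 sham. In A/J mice CBDL and sham arrays overlapped, and in B6 mice the lowest CBDL array and the highest sham array were equal to the second decimal. Its difference was 0.01 (standard error 0.12) in A/J and 0.40 (standard error 0.12) in B6 mice, with an interaction of -0.39 (unadjusted p = 0.0450, adjusted p = 0.719). Ebp, a sterol isomerase, differed by 0.10 and 0.23, and Sc5d, a sterol desaturase, by 0.42 and 0.06, in A/J and B6 mice. Dhcr7, the reductase that yields cholesterol, had 8.31, 9.05 and 8.25 in the A/J CBDL arrays against 8.01, 8.13 and 7.99 in A/J sham, and 8.23, 8.50 and 8.46 in the B6 CBDL arrays against 7.99, 7.78 and 7.97 in B6 sham. A/J CBDL replicate 2 stood apart from the other arrays. The averaged differences had 95% intervals of 0.01 to 0.39 for Tm7sf2, -0.01 to 0.33 for Ebp, 0.01 to 0.46 for Sc5d and 0.20 to 0.78 for Dhcr7, so that rises of the size of Mvd were outside the first 3 intervals and inside the last.

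**Figure D2:**
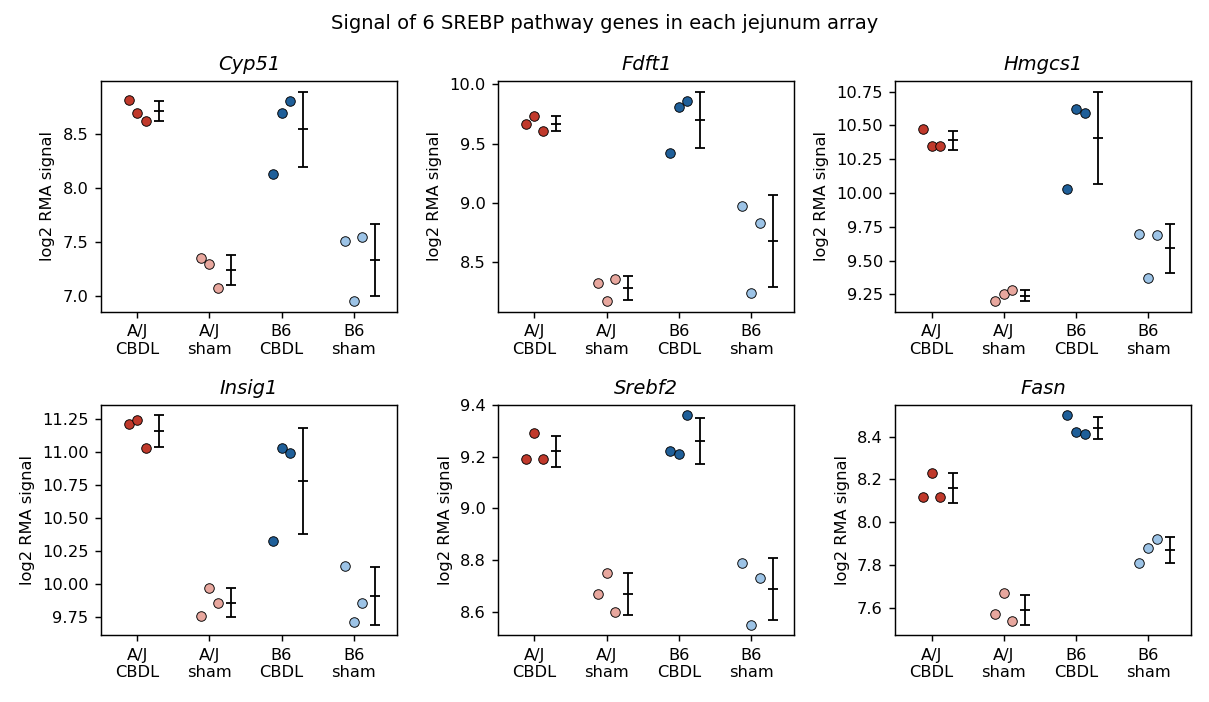
Log2 RMA signal of Cyp51, Fdft1, Hmgcs1, Insig1, Srebf2 and Fasn in each of the 12 jejunum arrays, with the mean and SD of each group of 3 beside its points. In each panel both CBDL groups lie above the sham group of their strain; Cyp51 averaged 8.71 in A/J CBDL against 7.24 in A/J sham, and 8.54 in B6 CBDL against 7.33 in B6 sham.

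Of the 6 regulators, 2 rose after CBDL. Insig1, the INSIG whose gene is itself an SREBP target, had 11.21, 11.24 and 11.03 in the A/J CBDL arrays against 9.76, 9.97 and 9.86 in A/J sham, and 10.33, 11.03 and 10.99 in the B6 CBDL arrays against 10.14, 9.71 and 9.86 in B6 sham. All CBDL arrays were above the sham arrays, and B6 CBDL replicate 1 was the lowest of them. The difference was 1.30 (standard error 0.18, adjusted p = 0.00869) in A/J and 0.88 (standard error 0.18, adjusted p = 0.135) in B6 mice. Srebf2 had 9.19, 9.29 and 9.19 in the A/J CBDL arrays against 8.67, 8.75 and 8.60 in A/J sham, and 9.22, 9.21 and 9.36 in the B6 CBDL arrays against 8.79, 8.55 and 8.73 in B6 sham. The CBDL arrays of the strains overlapped with each other and not with any sham array. The difference was 0.55 (standard error 0.09, adjusted p = 0.0212) in A/J and 0.57 (standard error 0.09, adjusted p = 0.0673) in B6 mice, and 0.56 (standard error 0.07, adjusted p = 0.00241) over both.

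The other 4 regulators were not called between CBDL and sham. Srebf1 had 8.32, 8.58 and 8.29 in the A/J CBDL arrays against 8.32, 8.31 and 8.21 in A/J sham, and 8.36, 8.24 and 8.24 in the B6 CBDL arrays against 8.30, 8.15 and 8.23 in B6 sham. Apart from A/J CBDL replicate 2 these values lay within a narrow band, and the averaged difference was 0.09 with an interval of -0.07 to 0.24, which leaves out a change of the size seen in Srebf2. A single probe set does not tell the transcripts of Srebf1 apart. Scap had 7.73, 7.78 and 7.72 in the A/J CBDL arrays against 7.37, 7.79 and 7.61 in A/J sham, and 7.81, 7.55 and 7.65 in the B6 CBDL arrays against 7.55, 7.53 and 7.38 in B6 sham. Stard4, a carrier of sterols between membranes, had 10.20, 10.12 and 10.06 in the A/J CBDL arrays against 9.97, 10.07 and 10.24 in A/J sham, and 9.98, 10.23 and 10.06 in the B6 CBDL arrays against 9.71, 9.95 and 9.91 in B6 sham. Neither separated the operations in A/J mice, and the averaged differences were 0.17 (interval -0.01 to 0.35) for Scap and 0.13 (interval -0.03 to 0.30) for Stard4.

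Insig2, the second INSIG, was the 1 gene called between the strains on the probe set used for each gene. It had 9.48, 9.22 and 9.17 in the A/J CBDL arrays against 9.10, 9.44 and 9.22 in A/J sham, and 8.47, 8.61 and 8.50 in the B6 CBDL arrays against 8.49, 8.57 and 8.70 in B6 sham. Every A/J array was above every B6 array, and within a strain CBDL and sham overlapped. A/J minus B6 was 0.76 (standard error 0.12, adjusted p = 0.00669) after CBDL and 0.67 (standard error 0.12, adjusted p = 0.0135) after the sham operation, while CBDL minus sham was 0.04 in A/J and -0.06 in B6 mice. Insig2 was the 1 gene of 33 called in each of the strain comparisons, where 1.78% of all probe sets were called between the CBDL groups and 1.87% between the sham groups. As 3.03% of the genes, this count is near those shares and is not read as a trait of the list. The arrays were not checked for sequence variants under the probes, so a difference in binding and a difference in RNA cannot be told apart between the strains. The call between sham groups was lost without A/J sham replicate 2 or without B6 sham replicate 1, and the call between CBDL groups in none of the 12 leave-outs. The dimmer probe set of Acaca, given below, was also called between the sham groups.

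Among the 10 fatty acid genes Fasn alone was called. Fasn, fatty acid synthase, had 8.12, 8.23 and 8.12 in the A/J CBDL arrays against 7.57, 7.67 and 7.54 in A/J sham, and 8.50, 8.42 and 8.41 in the B6 CBDL arrays against 7.81, 7.88 and 7.92 in B6 sham. The 4 groups did not overlap, with B6 CBDL the highest and A/J sham the lowest. CBDL minus sham was 0.56 (standard error 0.08, adjusted p = 0.00976) in A/J and 0.57 (standard error 0.08, adjusted p = 0.0499) in B6 mice. A/J minus B6 was -0.28 after CBDL (adjusted p = 0.125) and -0.28 after the sham operation (adjusted p = 0.130), and neither passed. The B6 calls of Fasn and Nsdhl were each lost in 10 of the 12 leave-outs.

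The other steps that feed Fasn were not called. Acaca, acetyl-CoA carboxylase, differed by 0.27 in A/J and 0.25 in B6 mice on its brighter probe set. Its dimmer probe set differed by 0.72 in A/J mice (adjusted p = 0.00682) and by 0.25 in B6 mice (adjusted p = 0.491), and rose by 0.49 in the average (adjusted p = 0.00518), so the probe sets disagree. The dimmer one also gave a log2 difference of -0.76 for A/J sham minus B6 sham (adjusted p = 0.00180). Acly, ATP citrate lyase, differed by 0.18 and 0.13, and Acss2, acetyl-CoA synthetase, by 0.16 and 0.36. Acss2 had 7.97, 8.02 and 8.09 in B6 CBDL, above all other arrays. Me1, malic enzyme, which supplies NADPH, had 9.55, 8.39 and 9.63 in the A/J CBDL arrays against 8.48, 9.28 and 8.69 in A/J sham, and 8.64, 7.79 and 7.94 in the B6 CBDL arrays against 7.07, 7.81 and 8.03 in B6 sham. The arrays of each group were widely spread. A/J minus B6 was 1.18 in sham mice (adjusted p = 0.162) and 1.07 in CBDL mice (adjusted p = 0.221).

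The enzymes that lengthen or desaturate fatty acids were not called. Elovl6, an elongase, differed by -0.03 in A/J and -0.13 in B6 mice, and the desaturases Fads1 and Fads2 by 0.14 and 0.13 and by -0.01 and 0.35. Scd2, a stearoyl-CoA desaturase, had 6.53, 6.19 and 6.34 in the A/J CBDL arrays against 6.29, 7.15 and 6.62 in A/J sham, and 6.08, 6.48 and 6.53 in the B6 CBDL arrays against 6.94, 7.02 and 6.97 in B6 sham. The B6 groups did not overlap, with CBDL lower, and the differences were -0.33 (standard error 0.20, adjusted p = 0.481) in A/J and -0.62 (standard error 0.20, adjusted p = 0.388) in B6 mice. Scd1, its close relative, had 7.31, 7.28 and 7.10 in the A/J CBDL arrays against 4.44, 7.73 and 5.38 in A/J sham, and 6.87, 7.52 and 7.63 in the B6 CBDL arrays against 5.48, 9.16 and 8.72 in B6 sham. The CBDL arrays were close together, and the sham arrays of both strains spread over more than 3 log2 units. CBDL minus sham was 1.38 (standard error 0.93) in A/J and -0.45 (standard error 0.93) in B6 mice, so no direction can be read.

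Some markers of fat cells were high in the arrays where Scd1 was high. Scd1 was highest in B6 sham replicates 2 and 3 and A/J sham replicate 2, at 9.16, 8.72 and 7.73. Adipoq, adiponectin, which is made by adipocytes, was highest in the same 3 arrays, at 5.65, 4.95 and 3.85, against 2.84 to 3.38 in the other 9. The mean of 5 measured adipocyte markers was 6.50, 5.92 and 5.69 in those arrays and 5.21 to 5.57 in the others. Fabp4, a fatty acid carrier, was also highest in both of these B6 sham arrays, at 7.99 and 7.35, and had 6.37 in A/J sham replicate 2. Other markers followed in part. Plin1 had 6.04 in B6 sham replicate 2 and 5.81 in A/J sham replicate 2, but 5.29 in B6 sham replicate 3. Lep had 3.91 in B6 sham replicate 2, but 3.47 in B6 sham replicate 3 and 3.45 in A/J sham replicate 2. Cidec had 8.94 in B6 sham replicate 2 and 8.96 in A/J sham replicate 2, but 8.57 in B6 sham replicate 3. It also had 8.95 in A/J sham replicate 3, where Scd1 was 5.38. The smooth muscle markers also varied between arrays, from 6.88 in A/J sham replicate 1, where Scd1 was lowest, to 9.32 in A/J sham replicate 2. The part of either in the values of Scd1 was not tested.

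**Figure D3:**
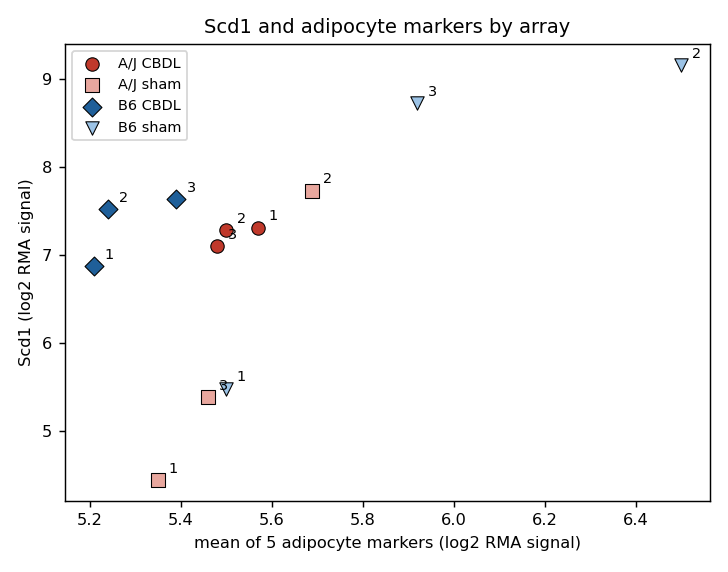
Log2 RMA signal of Scd1 (vertical) against the mean of 5 adipocyte markers (horizontal) in the 12 arrays, numbered by replicate within the group. B6 sham replicates 2 and 3 lie at the upper right, with Scd1 at 9.16 and 8.72, and the 6 CBDL arrays lie together at 6.87 to 7.63.

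**Figure D4:**
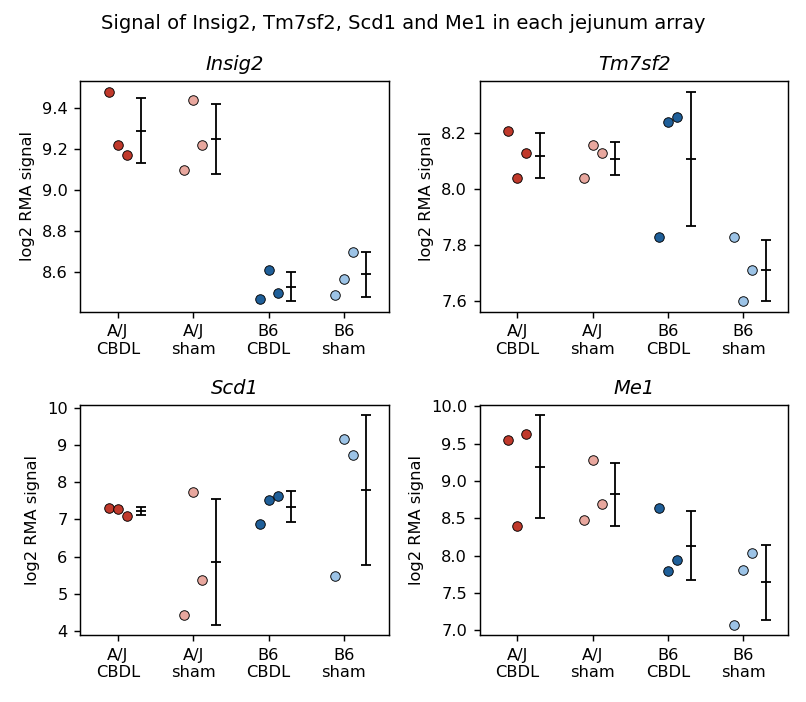
Log2 RMA signal of Insig2, Tm7sf2, Scd1 and Me1 in each array, with the mean and SD of each group of 3. Insig2 separates A/J (means of 9.29 in CBDL and 9.25 in sham) from B6 (8.53 in CBDL and 8.59 in sham), and Scd1 shows the wide spread of the sham arrays.

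The sterol genes were set beside the hepatocyte markers array by array. The mean of the 17 sterol genes was 9.06, 9.02 and 8.88 in A/J CBDL against 8.13, 8.23 and 8.13 in A/J sham, and 8.71, 9.06 and 9.13 in B6 CBDL against 8.37, 8.01 and 8.30 in B6 sham. The CBDL arrays lay above all sham arrays. The sterol and the hepatocyte means of A/J mice separated the operations alike. Those of B6 mice did not, since sham replicate 3 had a hepatocyte mean of 8.35, against 8.39 to 8.66 in the CBDL arrays, and a sterol mean of 8.30. In that array 15 of 17 sterol genes lay below every B6 CBDL array, as did 8 of 18 hepatocyte markers. The share of all probe sets that did so in that array was not counted. The median over the sterol genes of the B6 CBDL mean minus this array was 0.74, and minus the mean of the other 2 sham arrays 0.83. For the hepatocyte markers the same medians were 0.14 and 1.90. Without B6 sham replicate 3 the number of genes that rose was 13 in A/J mice, 2 in B6 mice and 16 in the average. With the hepatocyte mean as a covariate 0 of 33 were called by limma in any of these 3 comparisons, and over all 35556 probe sets it left 0 calls in A/J mice, 6 in B6 mice and 0 in the average. The medians of the 33 were 0.40, 0.44 and 0.36, and standard errors were wider by median factors of 2.87, 1.46 and 2.82. In A/J mice, in B6 mice and in the average a part of liver RNA in the differences and an effect of CBDL cannot be told apart. Against the CBDL arrays, the contrast of sterol genes and hepatocyte markers within B6 mice rests on 1 sham array. Between the sham groups, A/J minus B6 had a median of -2.35 for the hepatocyte markers and -0.01 for the 17 sterol genes. There 0 of 17 sterol genes were called by limma (1.87% of all probe sets were), with 6 at an unadjusted p under 0.05 (15.4% of all probe sets). The part of liver RNA in the sterol values was not tested by this comparison.

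**Figure D5:**
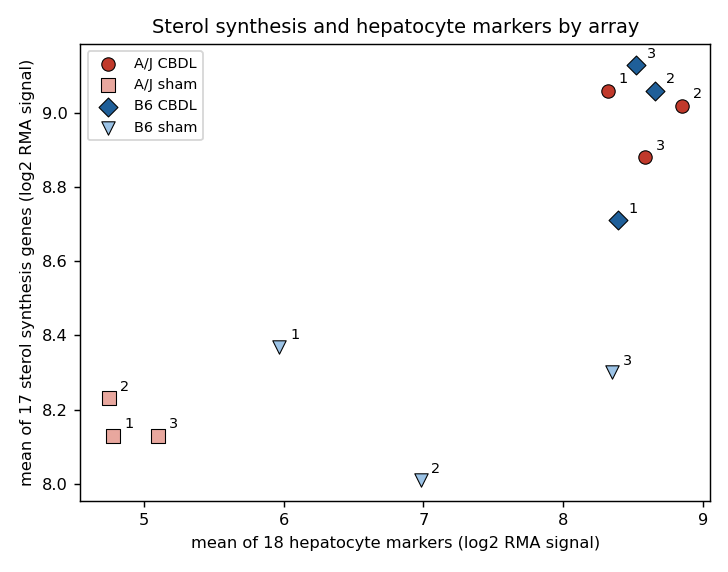
Mean log2 RMA signal of the 17 sterol synthesis genes (vertical) against the mean of 18 hepatocyte markers (horizontal) in the 12 arrays, numbered by replicate within the group. B6 sham replicate 3 lies at 8.35 on the horizontal axis, beside the CBDL arrays, and at 8.30 on the vertical axis, among the sham arrays.

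Other genes of these pathways were taken from a separate list of 18, of which 15 were measured. In A/J mice 1 of 15 rose, Lpin1, a lipid phosphatase and coactivator, by 0.55 (standard error 0.11, adjusted p = 0.0496), and 0 fell, where 0.630% of all probe sets rose. Lpin1 had 6.18, 6.35 and 6.01 in the A/J CBDL arrays against 5.53, 5.61 and 5.75 in A/J sham, and 5.97, 5.90 and 6.07 in the B6 CBDL arrays against 6.0, 5.89 and 5.77 in B6 sham. The groups of A/J mice did not overlap and those of B6 mice did. In B6 mice 0 of 15 were called by limma, with 6 at an unadjusted p under 0.05, where 7.64% of all probe sets passed it. In the average 1 of 15 rose, where 1.12% of all probe sets did. It was Aacs, acetoacetyl-CoA synthetase, which supplies the cytosolic pool used by Hmgcs1. Aacs had 7.91, 7.71 and 7.64 in the A/J CBDL arrays against 7.12, 7.35 and 7.12 in A/J sham, and 7.79, 7.87 and 8.07 in the B6 CBDL arrays against 7.43, 7.23 and 7.35 in B6 sham. The groups did not overlap, and the averaged difference was 0.56 (standard error 0.08, adjusted p = 0.00733). Tmem97, a regulator of cholesterol transport, had 0.52 in the average (adjusted p = 0.0533). In the strain comparisons and the interaction 0 of 15 were called by limma, with 4 in sham, 3 in CBDL and 2 in the interaction at an unadjusted p under 0.05, where 15.4%, 13.7% and 6.88% of all probe sets passed it.

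Thrsp, a protein of lipogenic tissues, had opposite differences in the strains. It had 5.57, 5.66 and 5.73 in the A/J CBDL arrays against 4.64, 5.20 and 5.13 in A/J sham, and 5.23, 5.12 and 4.86 in the B6 CBDL arrays against 5.37, 6.49 and 6.29 in B6 sham. In A/J mice every CBDL array was above the sham arrays and in B6 mice every CBDL array was below them. The differences were 0.66 (standard error 0.25) and -0.98 (standard error 0.25), and the interaction was 1.64 (standard error 0.36, adjusted p = 0.367), which did not pass. Thrsp was highest in B6 sham replicates 2 and 3, the arrays in which Scd1 and Adipoq were highest as well.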

How the data were processed

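The authors deposited log2 signals of 35556 probe sets on 12 arrays, made with RMA in Affymetrix Expression Console per the labels. Which versions were used is not given in the sources used here. GCRMA and another array type stand in the study's methods, and this was not settled. RMA scales all arrays to 1 distribution, so a change common to all genes would not be seen. The values, 1.57 to 14.4 with array medians of 5.36 to 5.51, were used as deposited. Of the probe sets 21789 carry 1 gene symbol, 1621 several and 12146 none. The members and the lists were chosen with earlier results of these data known. Some genes of the pathway are not reported here.

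Comparisons used limma 3.58.1 (R 4.3.3) with 4 group means over the 12 arrays, empirical Bayes variances and Benjamini-Hochberg adjustment over all probe sets. The procedure was tested on simulated data with independent noise for each probe set. Variation shared between genes, as in the hepatocyte markers here, was not simulated, so that test does not cover it. Values were given array by array for genes called in any of 6 comparisons and for the 6 regulators, and for others where an array stood apart. Alternatives were the 6 arrays compared, no dim probe sets (lowest 30%), 1 symbol, quantile or median scaling, array weights, a replicate block, the hepatocyte mean as a covariate, the dimmer probe set and each array left out.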

Additional observations from a re-analysis of the deposited data

How the results depend on the processing

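The counts of genes called between CBDL and sham depended on the setting within each strain and less in the average. In A/J mice the count was 14, and it became 8 with only the 6 arrays compared, 9 with array medians subtracted, 7 with the replicate block and 0 with the hepatocyte covariate. With 1 array left out it ran from 5 to 14, with 7, 6 and 8 without A/J CBDL replicate 1, 2 and 3 and 8 and 5 without A/J sham replicate 1 and 2. Hmgcs1, Fdft1, Cyp51, Insig1 and Fasn kept their call in all 12 leave-outs. In B6 mice the count was 2, and it became 0 with only the 6 arrays, median subtraction, the replicate block or the covariate, 5 when the lowest 30% of probe sets were dropped, 11 under array weights and 14 with the 21789 probe sets of exactly 1 gene symbol. Over all probe sets the calls in B6 mice, in either direction, numbered 19 in the main fit. They were 45 without the dim probe sets, 167 under array weights and 163 with exactly 1 gene symbol. Leaving out 1 array gave 0 to 2 of the 33 genes, and 2 only without A/J sham replicate 1 or B6 sham replicate 3. In the average the count was 16, all higher. It was 16 to 17 with an array left out, the 17 being Scd2, lower, without A/J sham replicate 1. It was 16 with the replicate block and 0 with the covariate.

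Between the sham groups the count was 1, and it became 0 with only the 6 arrays or the covariate, 4 with array weights and 2 with the dimmer probe sets, and ran from 0 to 1 with an array left out. Between the CBDL groups it was 1, became 2 with array weights and ran from 1 to 2 with an array left out. For the interaction, which was not run with only 6 arrays, it was 0 under the other alternatives. Deviations of arrays with the same replicate number correlated at -0.31 to 0.36. Arrays with different numbers were not set beside these, so whether the numbers pair the arrays was not settled. Where a gene was called, its difference changed sign under none of the alternatives run. Over all 33 genes the covariate turned the sign of 7 in A/J mice (Scd1 to -2.77), 2 in B6 mice and 5 in the average, array weights of 4, 1 and 0, and median subtraction of 3, 0 and 0. With an array left out up to 5, 2 and 1 turned, and up to 10 between the CBDL groups. Of the values of called genes, 130 of 668 lost their call under an alternative.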
